A study of Mus musculus with 13 samples.

Results

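D5 is a transplantable plasma cell tumour line of the mouse. Bulk RNA of its cells was measured in 2 recipients and was set against 6 libraries of bone marrow plasma cells that were not tumour lines, 3 from V mice and 3 from wild-type (WT) mice. Genes were singled out when both D5 libraries lay above, or both lay below, all 11 other libraries of the series, including those of the tumour lines D1 (2), D4 (1) and tVk12653 (2). Of 12835 genes with enough reads to test, 2227 lay above that range (17.4%) and 1831 below it (14.3%).

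D5 cells carried the Vκ*MYC transgene, which places human MYC under immunoglobulin kappa elements so that germinal centre B cells can switch it on. They also carried 1 Nras allele with a lox-stop-lox cassette and the Q61R mutation (Nras LSL Q61R/+), and IgG1-Cre, which removes the cassette in germinal centre B cells. They were donor cells recovered from the marrow of transplant recipients, as were those of D1 and D4, which share this genotype. The tVk12653 libraries also came from recipients, and their label gives no further alleles. V mice carried Vκ*MYC and IgG1-Cre without the Nras allele and WT mice carried none of these, and neither is labelled as a transplant recipient. All mice were of the C57/BL6 background, and each library was made from 50000 sorted marrow cells that were CD138+, B220- and CD45.2+. D5 is 1 tumour line, so the p-values measure the spread between libraries and recipients and not between tumours. Genotype, transplantation and the history of this line cannot be told apart.

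Plasma cells are the antibody-secreting end stage of the B lineage, and multiple myeloma is their cancer. They normally do not divide, they hold a large endoplasmic reticulum, and they survive in the marrow on signals that pass through NF-kB, BCL2 family proteins and cytokine receptors. MYC drives ribosome production and growth. Activated NRAS signals through RAF, MEK and ERK, which induces ETV transcription factors together with the sprouty, SPRED and DUSP proteins that dampen the same pathway.

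Levels are CPM, reads per 1e+06 reads counted, after TMM scaling. Where 1 read is all that was counted in a D5 library its level is near 0.26 CPM, and 3 reads, the floor below which a level is read as not detected, correspond to 0.795 and 0.767 CPM in the D5 libraries. Total counts were 3754964 and 3935069 in D5 and 2096815 to 8512281 over the series. The D5 recipients resembled each other closely, with a Spearman correlation across tested genes of 0.986, against 0.758 to 0.811 between D5 and non-tumour libraries and 0.804 to 0.855 between D5 and the other lines. These correlations are across genes, which are not independent. The 10 most abundant genes held 7.61% and 7.79% of D5 counts, against up to 18.2% in the other libraries. Each log2 fold change has its standard error after the ± sign. Adjusted p-values are those of edgeR's quasi-likelihood test, corrected by Benjamini-Hochberg over the 12835 genes tested.

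To check the labels, the genes altered by design and those behind the sort were examined. Myc (chromosome 15, 61985341 to 61990361, GRCm38.p6) stood at 1351 and 1665 CPM in D5, against 307, 430.1 and 364 CPM in V and 51.4, 72.2 and 35.0 CPM in WT. D5 was above all non-tumour libraries (log2 fold change 3.44 ± 0.19, adjusted p = 1.87e-08) and also above V alone (2.04 ± 0.23, adjusted p = 1.26e-05), while the other lines spanned 687 to 8200.4 CPM. To what extent transgene reads were assigned to mouse Myc is unknown. At Nras (chromosome 3, 103058285 to 103067914) the level was 132 and 163 CPM in D5, against 30.8 to 38.1 (median 36.1) CPM in the non-tumour libraries and 41.7 to 59.3 CPM in the other lines. It was 2.06 ± 0.13 higher on the log2 scale than in non-tumour cells (adjusted p = 8.38e-09) and 1.54 ± 0.13 higher than in the other lines (adjusted p = 4.21e-07), and gene counts do not separate its mutant and normal alleles. Sdc1, which encodes CD138, was present but lay below the range at 365 and 422 CPM in D5, against 676 to 1123 CPM in non-tumour cells. Ptprc, which encodes CD45, was low but above the floor at 1.85 and 6.65 CPM in D5, although the sort gate selected CD45.2+ cells. Ptprc stood at 507 to 794 (median 583) CPM in non-tumour cells, 272 and 248 CPM in D1, 1.69 CPM in D4 and 196 and 183 CPM in tVk12653. Xist, which coats the silenced X, had 6.09 and 97.6 CPM in D5, against 2631, 1493 and 1881 CPM in V and 1481, 2.58 and 3.98 CPM in WT, and Y-linked Ddx3y was at 0 in D5 and V and at 47.9, 129 and 141 CPM in WT. Calls among other genes on these chromosomes may carry that difference, which was not tested.

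D5 differed from non-tumour plasma cells at most genes tested. edgeR called 3719 genes higher (29.0%) and 4158 lower (32.4%), and 2342 and 2860 of these changed at least 2-fold. The median log2 fold change over all tested genes was -0.16. Against WT alone 3445 genes were higher (26.8%) and 4081 lower (31.8%), and against V alone 3384 were higher (26.4%) and 3789 lower (29.5%). Against the mean of the other tumour lines 3399 were higher (26.5%) and 2835 lower (22.1%). These comparisons share the D5 libraries.

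Most genes outside the range were also called, 2139 of the 2227 above it as higher and 1733 of the 1831 below it as lower. The range rule uses the same D5 and non-tumour values as the test, so this overlap largely follows from the choice. Many called genes were inside the range. Of the 3719 genes called higher, 1580 were not above the range, and of the 4158 called lower, 2425 were not below it, because at least 1 tumour line or non-tumour library reached the D5 level. The same condition applied to D1, the other Nras mutant line with 2 recipients, singled out 614 genes above (4.78%) and 649 below (5.06%), and applied to tVk12653 it singled out 1225 above (9.54%) and 928 below (7.23%). The other 2 lines with replicates thus each had fewer such genes than D5. Most of the distances were small: the median gene above the range exceeded its nearest library by 1.35-fold, and 415 genes above and 357 below cleared it by at least 2-fold. At the edge, Sltm stood at 272 and 322 CPM in D5 with the nearest other library at 271.7 CPM and was just above the range, and Bag6 at 253 and 282 CPM with the nearest at 252.6 CPM was just inside. Below, Herc1 was just outside at 294 and 281 CPM against 293.7 CPM in the nearest library, and 1500009L16Rik, with no read in D5 or in the nearest library, was just inside.

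**Figure D1:**
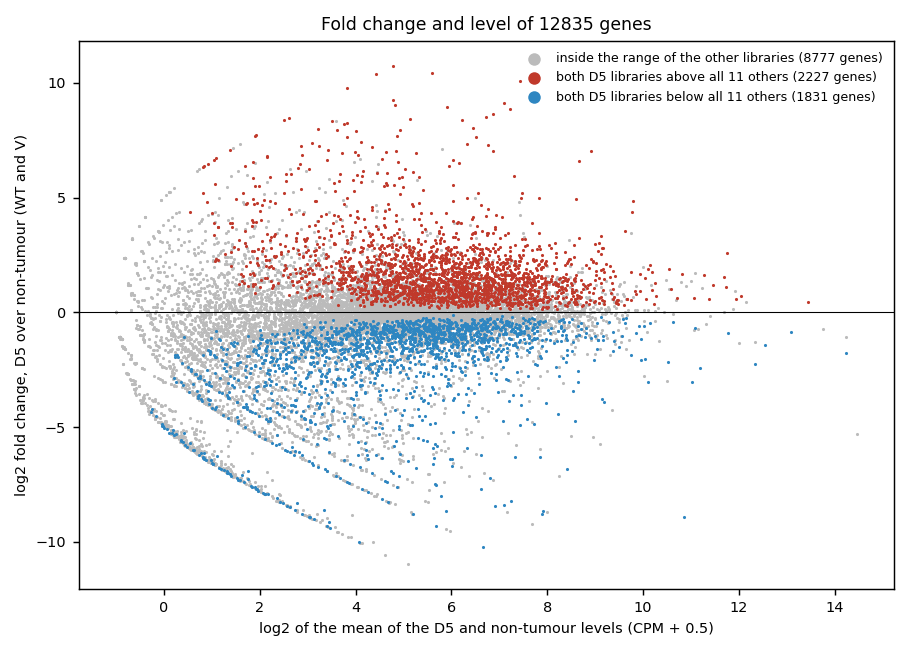
Each point is 1 of the 12835 tested genes, with its mean level in D5 and non-tumour libraries on the horizontal axis (log2 CPM + 0.5) and the log2 fold change of D5 over non-tumour on the vertical axis. The 2227 genes above the range of the other 11 libraries are red, the 1831 below it are blue, and both groups include many genes close to 0 fold change as well as genes changed by more than 8 on the log2 scale.

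The genes furthest above the range were nearly silent in every other library. They were picked by that distance, so their values are a description without a test. Mab21l2 (chromosome 3, 86546050 to 86548283), a gene of eye and midbrain development, stood at 355 and 331 CPM in D5, against 0 to 1.06 CPM in non-tumour cells and 0 to 0.435 CPM in the other lines (log2 fold change over non-tumour 10.06 ± 0.34). Scn11a (chromosome 9, 119753763 to 119825456), a voltage-gated sodium channel of sensory neurons, stood at 329 and 216 CPM in D5, against 0 to 1.06 CPM in non-tumour cells. Neither was above 1.1 CPM in any library other than those of D5.

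Several of these genes encode surface, matrix or membrane proteins. St6gal2, a sialyltransferase, stood at 182 and 162 CPM in D5, against 0.284 to 1.48 CPM in non-tumour cells and 0 to 0.562 CPM in the other lines. Nid2, a nidogen of basement membranes, stood at 244 and 219 CPM in D5, against 0 to 4.23 and 0 to 4.04 CPM in those libraries, and Tspan7, an X-linked tetraspanin, at 56.4 and 63.1 CPM in D5, against 0 to 0.493 CPM in non-tumour cells. Mamdc2, a protein of the extracellular matrix, and Rtn1, a reticulon of the endoplasmic reticulum, stood at 66.5 and 84.3 and at 73.4 and 54.7 CPM in D5, and neither passed 2 CPM elsewhere. Sln, which encodes sarcolipin, a regulator of the calcium pump of muscle, differed most between the recipients, with 58.0 and 26.1 CPM. It had no read in any non-tumour library, so it was at least 38.6-fold higher in D5, taking the floor of 3 reads in each of those libraries.

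The remaining genes of this set have roles in other cell types. Uaca, which binds components of the apoptosome, stood at 314 and 277 CPM in D5, against 0 to 3.87 CPM in non-tumour cells and 0.231 to 8.91 CPM in the other lines. Tcim, a small regulator of transcription, stood at 119.5 and 72.1 CPM in D5 and had 1 read in all 6 non-tumour libraries together, a ratio of 1620-fold (290 to 64088); here and below the values in brackets after such a ratio are its exact 95% interval for counting error alone. Tdrd1, a tudor protein of the germline piRNA pathway, stood at 54.1 and 57.5 CPM in D5 with a ratio of 316-fold (107 to 1539), and Foxf1, a forkhead factor of lung and gut mesenchyme, at 34.2 and 33.0 CPM with a ratio of 190-fold (64.3 to 928), each with 3 reads in the non-tumour libraries. With a limit of at most 1 CPM in all 11 other libraries and at least 10 CPM in both D5 libraries, 13 genes counted as on in D5 and off elsewhere. Besides Tcim, Tspan7, Tdrd1, Sln and Foxf1 these were Acoxl, Ak4, Arhgdig, Cldn10, Fam163a, Htr5a, Rd3l and Sh3rf2. Of these 8, Ak4, a mitochondrial adenylate kinase, stood highest in its lower recipient, at 29.7 and 24.3 CPM, and Htr5a, a serotonin receptor, was the least abundant at 11.1 and 11.2 CPM.

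The genes furthest below the range were the mirror image, with clear levels in all other libraries. Cd74 (chromosome 18, 60803849 to 60812652), the invariant chain that escorts MHC class II molecules and a receptor for the cytokine MIF, stood at 3.97 and 11.2 CPM in D5, against 2889 to 4439 (median 3736) CPM in non-tumour cells and 2514 to 5274 CPM in the other lines (log2 fold change -8.90 ± 0.41). Chst1 (chromosome 2, 92599632 to 92615252), a sulfotransferase of keratan sulfate, stood at 1.06 and 1.02 CPM in D5, against 308 to 701 (median 408) CPM in non-tumour cells (-8.78 ± 0.55). Ly6d, a surface protein of B lineage progenitors, had 1 read in both D5 libraries together, against 119 to 295 (median 189) CPM in non-tumour cells and 357 to 809.9 CPM in the other lines, and was lower by 1489-fold (267 to 58819). The D5 libraries did not approach the others at any of the 3.

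Other genes of lymphocytes in this set were Fcrla and Cd52. Fcrla, an Fc receptor-like protein of B cells, stood at 0.265 and 1.28 CPM in D5, against 237 to 332 (median 270.0) CPM in non-tumour cells, and Cd52, a small glycopeptide of lymphocytes, at 2.65 and 4.34 CPM, against 165 to 736 (median 231) CPM. St8sia6, another sialyltransferase, stood at 0.795 and 1.53 CPM in D5, against 299 to 620.2 (median 502) CPM in non-tumour cells and 96.8 to 329 CPM in the other lines. The set thus held a sialyltransferase above the range and another below it. Hook1, which links cargo to microtubules, was lower in D5 than in non-tumour cells by 455-fold (126 to 3757), and Pitpnc1, a phosphatidylinositol transfer protein, by 282-fold (96.2 to 1366). Plxna1, a semaphorin receptor, was lower by 249-fold (44.6 to 9863), Gpc1, a glypican, by 210-fold (37.5 to 8308), and Cry1, a repressor of the circadian clock, by 114-fold (31.3 to 940). Arhgap5, a GTPase-activating protein, had no read in D5, against 9.95 to 29.6 CPM in non-tumour cells, and was at least 25.8-fold lower. Cry2, the paralogue of Cry1, chosen after its values were seen, lay above the range instead, at 71.5 and 85.4 CPM in D5, against 22.4 to 35.0 CPM in non-tumour cells.

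By the same limits 13 genes were off in D5 and on in all 11 other libraries. Besides Cry1, Gpc1, Hook1, Ly6d, Pitpnc1 and Plxna1 these were Bend5, Ccdc92, Chst3, Fbxo21, Mon1b, Rap1gap and Spata6. Chst3, a sulfotransferase of chondroitin, was lower in D5 by 135-fold (46 to 656), and Rap1gap, which switches off the small GTPase RAP1, by 94.1-fold (25.9 to 780). Bend5 and Spata6 lie near each other on chromosome 4 and are described with the chromosomes.

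**Figure D2:**
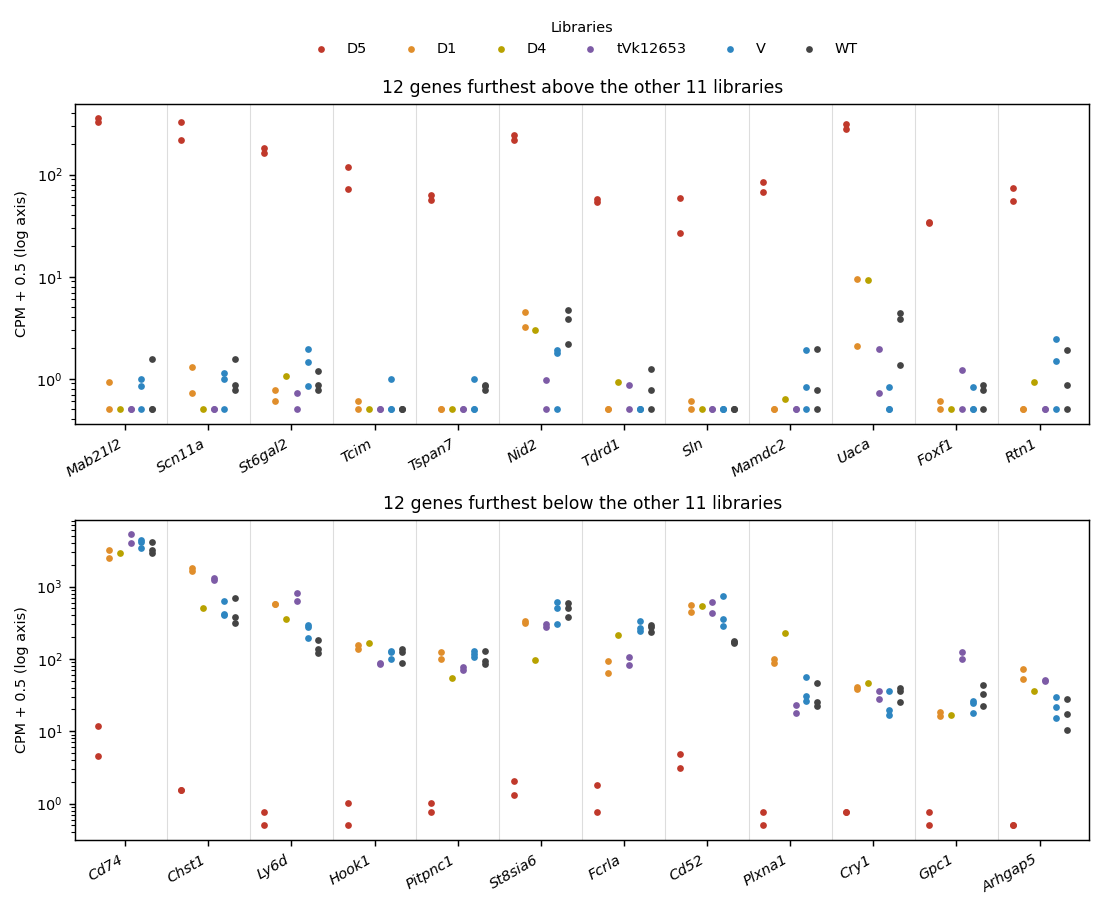
Levels (CPM + 0.5, log axis) of the 12 genes furthest above and the 12 furthest below the range of the other 11 libraries, 1 point per library. In the upper panel the D5 points lie between 26.1 and 355 CPM before the 0.5 is added while no other library exceeds 8.91 CPM, and in the lower panel D5 lies at or below 11.2 CPM while every other library is at 9.95 CPM or higher.

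The remaining results concern 26 lists of genes that share a role, chosen by function and read in the same fit across all genes. Their counts stand beside the share over all 12835 genes, 29.0% higher and 32.4% lower against non-tumour cells. Against the other tumour lines the shares over all genes were 26.5% higher and 22.1% lower. Single members were named by fold change, by lying outside the range, or after their values were seen. Their adjusted p-values therefore describe the named genes and are not a separate test of them. Lists of division, replication and ribosome production lay almost wholly on the higher side, and lists of NF-kB, MHC and B cell signalling almost wholly on the lower side.

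**Figure D3:**
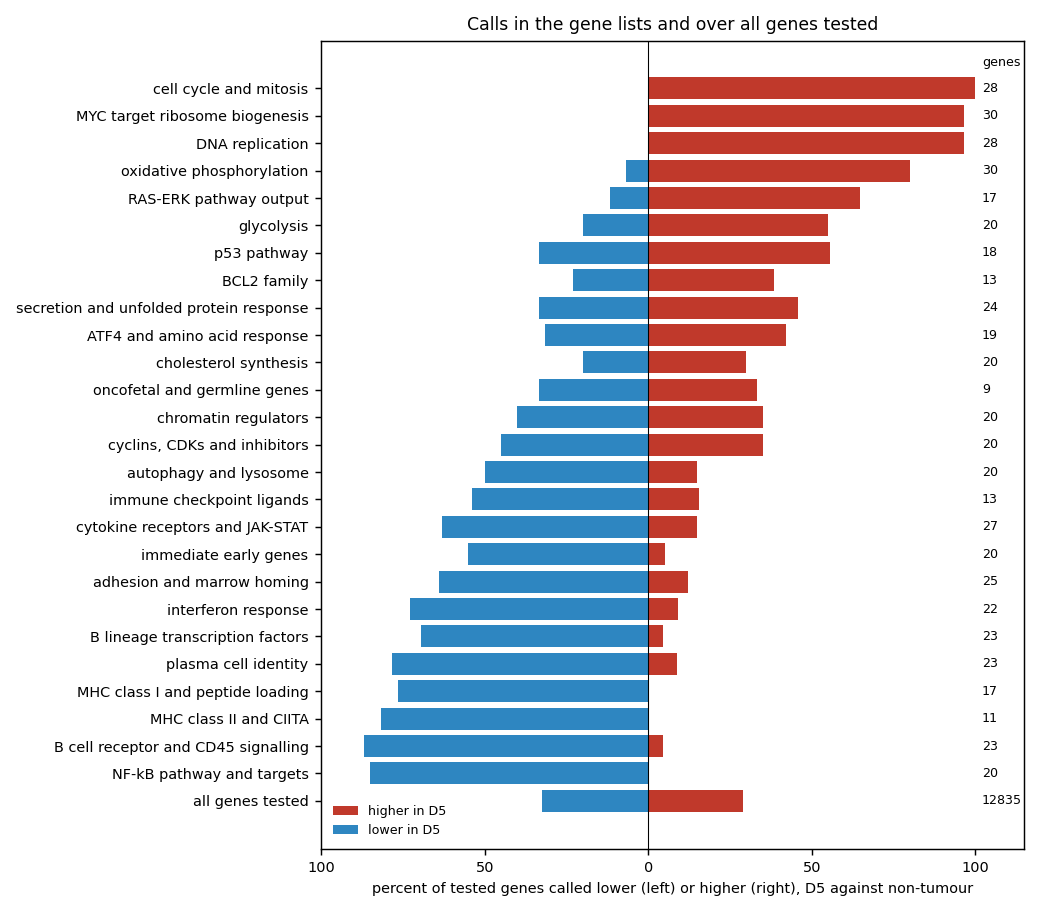
For each of 26 gene lists, the percent of tested members called higher (red, right) and lower (blue, left) in D5 against non-tumour libraries, with the number tested at the right edge and all genes tested in the bottom row. Cell cycle, ribosome biogenesis and DNA replication members were called higher in 28 of 28, 29 of 30 and 27 of 28 cases, and no NF-kB, MHC class I or MHC class II member was called higher.

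Genes of cell division were higher in D5, nearly all of them beyond every other library. All 28 cell cycle and mitosis genes were called higher, with a median log2 fold change of 2.73, and 27 of them lay above the range, the exception being Mki67. Against the other tumour lines 26 were called higher and 0 lower. Cdc20, the activator of the anaphase-promoting complex, stood at 227 and 233 CPM in D5, against 7.89 to 24.3 (median 8.67) CPM in non-tumour cells and 15.9 to 40.8 CPM in the other lines (log2 fold change 4.24 ± 0.28 over non-tumour, adjusted p = 1.41e-07, and 2.95 ± 0.28 over the other lines, adjusted p = 5.52e-06). Cdk1, the kinase that starts mitosis, stood at 159.8 and 144 CPM in D5, against 8.88 to 28.8 (median 15.1) CPM, and its partners Ccnb1 and Ccna2 at 35.5 and 33.2 and at 323 and 341 CPM, against 1.06 to 11.4 and 17.3 to 87.7 CPM. The mitotic kinases Aurka and Plk1, the spindle protein Tpx2 and the ubiquitin carrier Ube2c rose by 3.10 to 3.71 on the log2 scale. The summed level of the list was 8718 and 7972 CPM in D5, against 1028 to 3250.4 CPM in non-tumour cells, with WT replicate 2 highest, and 2615 to 5672 CPM in the other lines.

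Replication genes moved the same way. Of 28 tested, 27 were called higher and none lower, Rfc2 being the exception, with a median of 2.12, and 24 were also higher than in the other lines. Mcm10, which helps open the replication origin, stood at 180.4 and 185 CPM in D5, against 8.44 to 31.0 (median 14.8) CPM in non-tumour cells (log2 fold change 3.54 ± 0.25, adjusted p = 1.36e-07). Gins1 and Gins2, subunits of the replicative helicase, stood at 55.1 and 51.4 and at 50.1 and 49.8 CPM, against 2.596 to 9.58 and 1.48 to 7.37 CPM. Rfc4 and Rfc5, of the clamp loader, rose by 3.44 ± 0.31 and 2.38 ± 0.20. Rrm2, the regulated subunit of ribonucleotide reductase, stood at 315 and 361 CPM, against 18.7 to 81.5 (median 44.3) CPM, and the polymerase Pole and the flap nuclease Fen1 lay above the range as well.

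Nucleolar and ribosome biogenesis genes that MYC is known to drive were also higher. Of 30 tested, 29 were called higher and none lower (median 2.27), Odc1 being the exception, and 25 lay above the range. Their summed level was 13710.2 and 14832 CPM in D5, against 2589 to 3529 CPM in non-tumour cells and 5303 to 7387 CPM in the other lines. The tVk12653 libraries had 7999.8 and 8200.4 CPM of Myc, against 1351 and 1665 CPM in D5, and the smaller sums of the list. How far transgene reads were assigned to mouse Myc is unknown, so these Myc levels may not be comparable. The relation of Myc level to the list was not tested. Nhp2, a protein of box H/ACA particles, stood at 181 and 209.8 CPM in D5, against 13.4 to 24.2 (median 16.7) CPM in non-tumour cells (log2 fold change 3.46 ± 0.17, adjusted p = 1.21e-09). Srm, which makes spermidine, stood at 424 and 497 CPM, against 47.5 to 79.3 (median 61.2) CPM (2.92 ± 0.11, adjusted p = 1.52e-10). The abundant nucleolar proteins Ncl and Npm1 stood at 5587 and 6179 and at 949 and 1030.3 CPM, against 880.2 to 1285 and 116 to 235 CPM, and both exceeded the other lines too (Ncl 1.16 ± 0.13, adjusted p = 4.30e-06). Nolc1, Nop56, Nop14 and Mrto4 rose by 1.55 to 2.66.

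The E-box CACGTG, the letters that MYC with MAX binds and which read the same on both strands, was searched in the RefSeq promoters (GRCm38.p6, 250 bases before to 50 after the start, the first promoter of each gene). It was in 10.3% of 10179 promoters of tested genes, in 11.9% of 1805 promoters of genes above the range and in 10.7% of 1480 below it. Among the ribosome biogenesis genes 6 of 25 promoters held it. The promoters of 4 of them that lay above the range are shown, because they let the reader see where the letters fall relative to the start, with the E-box in capitals and the start at base 251 of each. Nop2 (chr6:125131633-125131932, plus strand), Pes1 (chr11:3963725-3964024, plus), Wdr43 (chr17:71615965-71616264, plus) and Mybbp1a (chr11:72441077-72441376, plus) are all nucleolar proteins.
Nop2: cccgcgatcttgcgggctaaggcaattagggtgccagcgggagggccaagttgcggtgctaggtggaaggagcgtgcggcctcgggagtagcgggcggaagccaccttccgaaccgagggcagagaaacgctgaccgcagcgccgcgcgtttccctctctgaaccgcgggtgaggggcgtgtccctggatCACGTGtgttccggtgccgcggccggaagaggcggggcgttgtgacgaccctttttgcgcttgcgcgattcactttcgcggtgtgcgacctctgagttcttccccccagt
Pes1: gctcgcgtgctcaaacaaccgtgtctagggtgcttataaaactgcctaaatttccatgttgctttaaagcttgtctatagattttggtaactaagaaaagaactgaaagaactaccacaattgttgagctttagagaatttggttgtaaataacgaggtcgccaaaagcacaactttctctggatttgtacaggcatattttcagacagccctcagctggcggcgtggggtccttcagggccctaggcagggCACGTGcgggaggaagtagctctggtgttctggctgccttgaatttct
Wdr43: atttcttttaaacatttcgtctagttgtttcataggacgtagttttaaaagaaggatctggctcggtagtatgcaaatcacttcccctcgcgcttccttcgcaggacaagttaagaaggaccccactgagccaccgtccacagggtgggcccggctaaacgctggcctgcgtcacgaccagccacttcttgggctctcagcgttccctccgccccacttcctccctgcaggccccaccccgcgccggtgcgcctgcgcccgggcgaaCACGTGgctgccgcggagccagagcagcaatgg
Mybbp1a: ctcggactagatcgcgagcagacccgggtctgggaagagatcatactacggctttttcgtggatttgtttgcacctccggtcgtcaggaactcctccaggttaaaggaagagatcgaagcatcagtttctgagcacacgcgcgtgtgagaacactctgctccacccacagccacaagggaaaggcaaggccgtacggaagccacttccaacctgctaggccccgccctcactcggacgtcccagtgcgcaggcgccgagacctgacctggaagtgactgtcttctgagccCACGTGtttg

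The 4 genes of these promoters were picked from those above the range, so their levels are a description. Of the other list genes with the E-box, Paics also lay above the range and Nme1 lay inside it. Nop2 stood at 183 and 189 CPM in D5, against 27.6 to 40.6 CPM in non-tumour cells and 57.9 to 139 CPM in the other lines. Pes1 stood at 85.1 and 102 CPM, against 29.6 to 43.8 and 49.7 to 79.3 CPM, Wdr43 at 530.5 and 616 CPM, against 108 to 131 and 202 to 379.9 CPM, and Mybbp1a at 933 and 974 CPM, against 148 to 193 and 352 to 526 CPM. A match of letters is not a measured binding site.

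ERK-induced genes had the highest median of the 26 lists, 3.55 on the log2 scale. Of 19 listed, 17 passed the filter on low counts, and 11 were called higher and 2 lower. Spry4, a sprouty inhibitor of RAS signalling, stood at 194 and 228 CPM in D5, against 96.9 and 70.1 CPM in D1, 34.7 CPM in D4, 0 and 0.362 CPM in tVk12653 and 0 to 1.47 CPM in non-tumour cells. It rose by 8.52 ± 0.31 over non-tumour (adjusted p = 1.87e-10) and by 4.73 ± 0.29 over the other lines (adjusted p = 3.12e-08), and D5 overlapped with none of these groups. The ETV transcription factors were also above the range. Etv5 stood at 221 and 179 CPM in D5, against 8.53 to 12.8 (median 11.2) CPM in non-tumour cells and 6.70 to 73.9 CPM in the other lines, Etv4 at 35.0 and 43.7 CPM, against 0 to 0.569 and 0.231 to 15.3 CPM, and Etv1 at 57.8 and 52.9 CPM, against 0 to 2.21 and 0 to 6.32 CPM.

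Some inhibitors and cyclin D1 were also higher. The 4 members not called included the inhibitors Spry2 and Dusp5. Spred1, which recruits neurofibromin to RAS, stood at 158 and 169.7 CPM in D5, against 5.97 to 15.1 (median 8.42) CPM in non-tumour cells, 1.08 and 0.326 CPM in D1, 70.1 CPM in D4 and 0.231 and 0.362 CPM in tVk12653 (4.14 ± 0.23 over non-tumour, adjusted p = 3.43e-09). Dusp6, the phosphatase of ERK, stood at 246 and 148 CPM, against 11.4 to 42.0 (median 14.9) CPM in non-tumour cells (3.45 ± 0.29, adjusted p = 1.17e-06). Ccnd1, cyclin D1, stood at 52.7 and 37.1 CPM, against 0 to 9.58 CPM (4.41 ± 0.63, adjusted p = 9.52e-05), and Epha2, an ephrin receptor, rose by 4.67 ± 0.67 but was inside the range because D4 had 42.1 CPM. The other members called higher were Spred2, above the range (2.69 ± 0.22), and Phlda1 and Spry1, inside it (3.82 ± 0.49 and 3.55 ± 1.34), Spry1 with 2.38 and 1.79 CPM in D5, 0 to 1.84 CPM in non-tumour cells and 4.35 to 33.0 CPM in the other lines, all above D5 (-2.74 ± 0.79, adjusted p = 0.0144). The members called lower were Spred3, with 1.59 and 0.511 CPM in D5, against 3.57 to 8.80 CPM in non-tumour cells, and Il1rl1, with 0.530 and 0 CPM, against 0.356 to 13.3 CPM. Leaving out 1 library reduced the lower calls to 1 (D5 replicate 1, V replicate 1, V replicate 3 or WT replicate 2) or 0 (D5 replicate 2). Of 11 promoters of the list, 1 held the ETS letters CCGGAA on either strand, against 28.5% of all tested promoters and 33.0% of those above the range.

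Immediate early genes, which stimulated cells induce within minutes, were mostly lower or not called. Of 20, 11 were called lower and 1 higher (median -2.70). The number called lower was 6 without D5 replicate 1, 4 without D5 replicate 2 and 18 without the filter on low counts, and the single higher call, Nr4a2, was lost without either D5 replicate. Their summed level was 1546 and 2231 CPM in D5, against 3347 to 19166 CPM in non-tumour cells, and WT replicate 1 was the highest of these. Junb stood at 24.6 and 24.8 CPM in D5, against 190.3, 224 and 180.4 CPM in V and 555, 430.2 and 375 CPM in WT (-3.60 ± 0.50, adjusted p = 0.000188). Klf4 and Egr3 had no read in D5 and were inside the range. Klf4 stood at 13.8 to 113 CPM in non-tumour cells, 1.08 and 0.217 CPM in D1, 24.2 CPM in D4 and 0.231 and 0 CPM in tVk12653. Egr3 stood at 2.596 to 114 CPM in non-tumour cells, with V at 2.96, 5.34 and 2.596 CPM and WT replicate 1 highest, and at 0 to 0.562 CPM in the other lines. Fos stood at 59.4 and 49.3 CPM, against 294 to 3421 (median 701) CPM (adjusted p = 0.0296), and its adjusted p was 0.119 without D5 replicate 1 and 0.136 without D5 replicate 2. Fosb likewise lost its call.

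NF-kB genes were mostly lower. Of 20 tested, 17 were called lower and none higher (median -2.56), 10 lay below the range, and 14 were also lower than in the other tumour lines, against 22.1% of all genes. The inhibitors that NF-kB itself induces were among the lowest. Tnfaip3, which encodes the ubiquitin editor A20, stood at 1.06 and 1.79 CPM in D5, against 92.2 to 184 (median 127) CPM in non-tumour cells and 17.3 to 189 CPM in the other lines (-6.41 ± 0.35, adjusted p = 5.25e-09; over the other lines -5.41 ± 0.36, adjusted p = 6.92e-08). Nfkbia, the inhibitor IkB alpha, stood at 21.5 and 25.3 CPM, against 244 to 343 (median 273) CPM and 69.7 to 589.7 CPM (-3.62 ± 0.26, adjusted p = 1.44e-07). D5 and the other libraries did not overlap at either gene.

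Among the NF-kB factors, Relb and Nfkb2 of the alternative pathway and Rel lay below the range, and Rela was not called. Relb stood at 0 and 1.02 CPM in D5, against 35.6 to 46.6 (median 42.7) CPM in non-tumour cells (-6.23 ± 0.46, adjusted p = 5.56e-08), and Nfkb2 at 9.80 and 8.69 CPM, against 133 to 184 CPM. Rel stood at 3.44 and 5.37 CPM, against 15.9 to 56.0 CPM (-2.61 ± 0.58, adjusted p = 0.00245). Rela stood at 91.7 and 117 CPM, against 99.1 to 139 CPM. The coactivator Bcl3 and the adhesion target Icam1 also lay below the range (-4.73 ± 0.49 and -1.58 ± 0.18). Tnfaip2 had 3 reads in D5 and was lower by 54.3-fold (18.4 to 264), and it was also low in the other lines (0 to 5.11 CPM). The summed level of the list without Cd74 was 476 and 490.2 CPM in D5, against 1643 to 1916 CPM in non-tumour cells and 869 to 2301 CPM in the other lines. Summed B cell markers were 83.7 and 74.4 CPM in D5, 731 to 1185 CPM in non-tumour cells and 111 to 219 CPM in the other lines. In the other lines Cd79b alone, at a median of 170 CPM, made up most of the B cell sum. The part of B cells in the NF-kB result was not tested.

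The NF-kB letters, GGGA, any base, TT, any base and CC, were searched on both strands of the same promoters. They were in 1.25% of all tested promoters, in 2.09% of those of genes below the range and in 0.997% of those above it. Of 16 promoters of this list 5 held them, those of Bcl3, Cyld, Nfkb2, Nfkbia and Rel, 4 of which lay below the range, and the list was chosen with such targets in it. The 4 are shown with the matched letters in capitals and the start at base 251, since these genes are both parts and targets of the pathway: Nfkbia (chr12:55492598-55492897, minus strand), Nfkb2 (chr19:46304487-46304786, plus), Rel (chr11:23770920-23771219, minus) and Bcl3 (chr7:19822706-19823005, minus).
Nfkbia: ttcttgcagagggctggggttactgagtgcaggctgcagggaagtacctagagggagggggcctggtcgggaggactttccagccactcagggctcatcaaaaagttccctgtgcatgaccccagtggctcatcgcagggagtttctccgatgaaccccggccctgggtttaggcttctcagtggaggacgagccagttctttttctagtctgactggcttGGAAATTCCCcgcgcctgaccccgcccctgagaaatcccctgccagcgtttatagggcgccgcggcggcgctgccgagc
Nfkb2: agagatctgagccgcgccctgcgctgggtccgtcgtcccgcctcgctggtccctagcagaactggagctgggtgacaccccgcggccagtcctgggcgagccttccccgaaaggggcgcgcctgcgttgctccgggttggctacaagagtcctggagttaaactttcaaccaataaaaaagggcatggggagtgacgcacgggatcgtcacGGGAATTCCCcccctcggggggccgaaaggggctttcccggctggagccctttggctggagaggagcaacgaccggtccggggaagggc
Rel: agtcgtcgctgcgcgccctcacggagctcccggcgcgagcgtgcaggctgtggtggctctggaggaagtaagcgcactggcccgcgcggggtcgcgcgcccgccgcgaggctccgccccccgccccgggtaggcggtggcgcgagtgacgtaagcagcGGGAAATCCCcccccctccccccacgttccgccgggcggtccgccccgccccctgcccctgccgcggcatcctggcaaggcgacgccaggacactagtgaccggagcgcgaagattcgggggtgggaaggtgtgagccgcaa
Bcl3: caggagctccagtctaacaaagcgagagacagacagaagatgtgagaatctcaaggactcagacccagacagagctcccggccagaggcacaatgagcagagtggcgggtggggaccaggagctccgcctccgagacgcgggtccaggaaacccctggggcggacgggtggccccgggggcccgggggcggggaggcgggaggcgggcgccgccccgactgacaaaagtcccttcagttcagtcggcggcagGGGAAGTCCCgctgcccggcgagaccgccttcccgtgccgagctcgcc

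Antigen presentation genes were lower as well. Of 11 MHC class II genes 9 were called lower and none higher (median -4.83, and -7.20 without D5 replicate 1). In bulk RNA, fewer cells of a type and less RNA per cell cannot be told apart. The class II chains H2-Aa and H2-Eb1 stood at 0 and 0.256 and at 0.530 and 0.511 CPM in D5, against 25.1 to 186 and 46.8 to 146 CPM in non-tumour cells. In the other lines H2-Aa was at 0.140 to 3.77 CPM, so its level overlapped with D5, and H2-Eb1 at 2.82 to 38.0 CPM. H2-DMa, of the peptide exchange factor, was lower in D5 than in the other lines (-2.70 ± 0.40, adjusted p = 7.17e-05). The list without Cd74 summed to 7.15 and 9.20 CPM in D5, against 255 to 878 CPM in non-tumour cells and 37.4 to 137 CPM in the other lines. Summed B cell markers were 83.7 and 74.4 CPM in D5, against 731 to 1185 CPM in non-tumour cells, and dendritic cell markers 321 and 349 CPM, against 718 to 828 CPM, and their part in the result was not tested. Tcf4 alone, at a median of 550 CPM in non-tumour cells and 360 CPM in the other lines, made up most of the dendritic sum in both. Cd79b had medians of 271 and 170 CPM in the same groups.

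MHC class I genes were lower in D5 by smaller folds. Of 17 tested, 13 were called lower and none higher (median -1.05), and against the other lines 12 were lower and 2 higher. B2m, the light chain of all class I molecules, stood at 480.4 and 416 CPM in D5, against 2440.2 to 5058 (median 3805) CPM in non-tumour cells and 1204 to 6280.2 CPM in the other lines (-3.03 ± 0.19, adjusted p = 1.23e-08). Tapbp, which encodes tapasin of the loading complex, stood at 75.3 and 80.5 CPM, against 395 to 677 (median 524) CPM (-2.76 ± 0.16, adjusted p = 6.01e-09). H2-K1 stood at 435 and 372 CPM, against 1291 to 2104 CPM, and H2-D1 at 527 and 454 CPM, against 746 to 1276 CPM. Reads of the class I genes can be shared among near-identical copies, so the values of single H2 genes are uncertain, which does not concern B2m and Tapbp. The peptide transporter Tap2 and H2-T23 and H2-Q4 also lay below the range, with falls of 1.13 to 1.64. The summed list stood at 2739 and 2484 CPM in D5, against 6595 to 11155 CPM in non-tumour cells and 4849.7 to 20370.0 CPM in the other lines.

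Plasma cell genes were reduced but remained expressed. Of 23 tested, 18 were called lower and 2, Fkbp11 and Eaf2, higher (median -1.30). Without D5 replicate 2, 1 was higher. The regulators Irf4, Xbp1 and Prdm1 were all present, Irf4 at 1511 and 1547 CPM in D5, against 941 to 1879 CPM in non-tumour cells, Xbp1 at 1490.5 and 1894 CPM, against 1963 to 3308 CPM, and Prdm1 at 215 and 215 CPM, against 329 to 677 CPM. Jchain, the joining chain of polymeric antibody, stood at 1509 and 724 CPM, against 33543 to 64456 (median 39109) CPM (-5.31 ± 0.49, adjusted p = 7.50e-06), but the other lines, at 44.5 to 6739.5 CPM, were low too. Tnfrsf13b, the receptor TACI, stood at 121 and 112 CPM in D5, against 471 to 869 (median 678) CPM in non-tumour cells and 345 to 526 CPM in the other lines (-2.54 ± 0.20, adjusted p = 1.07e-07). Slc3a2, the heavy chain of the CD98 amino acid carrier, stood at 227 and 251 CPM, against 1278 to 2336 (median 2119) and 464 to 4106 CPM (-3.02 ± 0.28, adjusted p = 2.52e-06). Tent5c, a poly(A) polymerase that is mutated in human myeloma, lay below the range at 412 and 348 CPM, against 1040.2 to 1863 CPM (-2.08 ± 0.18). Pim2 and Cd38 were lower than in non-tumour cells (-3.22 ± 0.33 and -4.02 ± 0.53) and inside the range of the other libraries. Without Jchain the list summed to 10208 and 10900.3 CPM in D5, against 14767 to 24470.2 CPM in non-tumour cells and 13149.8 to 22478 CPM in the other lines.

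The calls in the secretory machinery showed no common direction, although its summed level was highest in D5. Of 24 secretion and unfolded protein response genes 11 were called higher and 8 lower (median 0.13). Above the range lay 11 and below it 3, beside 17.4% and 14.3% of all genes. The list summed to 44393 and 44444 CPM in D5, against 27111 to 43048 CPM in non-tumour cells and 31524 to 37974 CPM in the other lines. The chaperones and disulfide isomerases Pdia6, Pdia3, Calr and Hspa5 lay above the range. Pdia6 stood at 2747 and 2672 CPM in D5, against 574 to 1121 (median 898) CPM in non-tumour cells (1.65 ± 0.13, adjusted p = 6.78e-08), and Hspa5, the chaperone BiP, at 4811 and 4664 CPM, against 2726 to 3503 (median 3152) CPM (0.59 ± 0.11, adjusted p = 0.000386). Sec61b, of the translocation channel, and Edem1, of protein disposal, rose by 1.30 ± 0.14 and 0.56 ± 0.14. Ern1, the sensor IRE1 alpha, stood at 181 and 159 CPM, against 365 to 689.8 (median 568) CPM (-1.70 ± 0.23, adjusted p = 3.94e-05), and the isomerase Pdia4 also lay below the range (-0.90 ± 0.15).

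Genes of the ATF4 amino acid response showed no common direction, with counts not far from the shares over all genes. Of 20 listed, 19 passed the filter, 8 were called higher and 6 lower (median 0.01). The serine enzymes Phgdh and Psph and the arginine carrier Slc7a1 lay above the range, Phgdh at 152 and 176 CPM in D5, against 37.2 to 70.1 (median 60.0) CPM in non-tumour cells (1.54 ± 0.18, adjusted p = 5.25e-06). The stress genes Ddit3, Chac1, Atf5 and Trib3 lay below it. Ddit3, the factor CHOP, stood at 1.85 and 3.58 CPM, against 44.5 to 60.8 (median 53.1) CPM (-4.27 ± 0.44, adjusted p = 3.14e-06), Chac1, which degrades glutathione, stood at 1.06 and 3.07 CPM, against 27.3 to 68.5 CPM, and Trib3 had 1 read in D5 and was lower by 35.3-fold (6.15 to 1411). Cth, which makes cysteine, rose over non-tumour cells (3.69 ± 0.53, adjusted p = 4.32e-05) and lay within the other lines, at 17.0 and 18.9 CPM in D5 and 3.26 to 39.2 CPM in them.

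Energy metabolism genes were mostly higher than in non-tumour cells. Of 30 genes of oxidative phosphorylation 24 were called higher and 2 lower (median 0.72), and of 20 of glycolysis 11 and 4 (median 0.57). Against the other lines 9 of the oxidative phosphorylation genes were higher and 4 lower, and 11 and 3 of the glycolysis genes, beside 26.5% and 22.1% of all genes. The median of the oxidative phosphorylation genes against the other lines was -0.02. Summed oxidative phosphorylation genes stood at 5213 and 5363 CPM in D5, against 2694 to 3500.2 CPM in non-tumour cells and 3536 to 5406 CPM in the other lines, D4 being the highest of all. Without D5 replicate 2 the lower calls were 2 in glycolysis and 1 in oxidative phosphorylation. Slc16a1, the lactate carrier MCT1, stood at 352 and 414 CPM in D5, against 13.8 to 51.6 (median 23.4) CPM in non-tumour cells and 43.7 to 82.8 CPM in the other lines (3.90 ± 0.27, adjusted p = 5.17e-07), while Slc16a3, the carrier MCT4, had 3 reads in D5 and was lower by 33.2-fold (11.2 to 162), with 0 to 2.42 CPM in the other lines. The subunits of lactate dehydrogenase both rose, Ldha at 274 and 347 CPM, against 35.7 to 72.6 CPM, and Ldhb at 44.8 and 31.4 CPM, against 0.284 to 3.69 CPM. Eno1 and Pgam1 lay above the range (2.76 ± 0.16 and 1.90 ± 0.40) and Aldoc below it (-1.84 ± 0.44). Atp5b, of the ATP synthase, rose by 1.49 ± 0.10 and lay above the range, as did Cox5a, Ndufs1, Sdhb and Atp5c1. Ndufa1, an X-linked subunit of complex I, went the other way, at 15.1 and 14.3 CPM in D5, against 37.6 to 76.8 (median 49.4) CPM in non-tumour cells and 74.3 to 174 CPM in the other lines (-1.84 ± 0.19, adjusted p = 1.04e-06).

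Interferon and cytokine pathway genes were more often called lower than higher. Of 25 interferon response genes 22 passed the filter, 2 were called higher and 16 lower (median -2.40), and 5 lay below the range. Without D5 replicate 1, 10 were called lower. Among those below the range were the factors Irf1, Irf7 and Irf9 and the gene Oasl1, with Irf1 at 26.2 and 14.6 CPM in D5, against 116 to 159 (median 136) CPM in non-tumour cells (-2.72 ± 0.21, adjusted p = 9.54e-08). Irf7 stood at 2.12 and 3.83 CPM in D5, against 26.2 to 61.6 (median 40.0) CPM in non-tumour cells (-3.76 ± 0.40, adjusted p = 2.25e-06). Oasl1 had no read in D5 and was at least 4.78-fold lower. Against the other lines 7 of the list were lower and 2 higher, beside 22.1% and 26.5% of all genes.

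Of 28 cytokine receptor and JAK-STAT genes 27 were tested, 4 were called higher and 17 lower (median -1.18). The kinases Jak2 and Tyk2 lay below the range, Jak2 at 36.6 and 35.5 CPM in D5, against 105 to 145 (median 129.8) CPM in non-tumour cells and 137 to 277 CPM in the other lines (-1.79 ± 0.15, adjusted p = 1.79e-07). Il2rg, the common gamma chain, stood at 0.795 and 0.511 CPM, against 56.3 to 113 (median 68.2) CPM (-6.78 ± 0.49, adjusted p = 8.61e-08), and Ifnar2, of the interferon receptor, fell as well (log2 fold change -1.18 ± 0.17). Socs2, a feedback inhibitor, lay above the range at 119 and 119 CPM in D5, against 15.3 to 39.4 (median 26.1) CPM in non-tumour cells and 0.231 to 2.06 CPM in the other lines (2.13 ± 0.26, adjusted p = 1.32e-05; over the other lines 6.98 ± 0.39). Kit and Il2rb, which mast cells and T or NK cells also express, had 3 and 2 reads in D5, against 13.5 to 60.2 and 15.1 to 58.8 CPM in non-tumour cells, and were at 0 to 7.02 and 0 to 2.90 CPM in the other lines. Summed T and NK cell markers were 4.77 and 5.62 CPM in D5, against 55.7 to 117 CPM in non-tumour cells, and their part in the result was not tested.

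Most of the B cell receptor genes and B lineage factors tested were called lower than in non-tumour cells. Of 23 genes of the B cell receptor and CD45 circuit 20 were called lower and 1, Fyn, higher (median -3.19), and without WT replicate 1 the higher calls numbered 2. Against the other lines 4 were higher and 6 lower, not far from the 26.5% and 22.1% of all genes. Fyn, a Src family kinase that CD45 activates, stood at 724 and 745 CPM in D5, against 34.2 to 109.9 (median 84.1) CPM in non-tumour cells, 29.9 and 4.13 CPM in D1, 79.1 CPM in D4 and 0 and 0 CPM in tVk12653 (3.23 ± 0.56 over non-tumour, adjusted p = 0.00198; 7.78 ± 0.97 over the other lines, adjusted p = 0.00047). Both D5 libraries were far above the highest of the others at this gene. Ptpn6, the phosphatase SHP-1, stood at 12.98 and 26.3 CPM in D5, against 279 to 446 (median 314) CPM in non-tumour cells (-4.06 ± 0.26, adjusted p = 3.14e-08). Cd79a, a signalling chain of the receptor, stood at 0.530 and 0.767 CPM in D5 and 0 to 0.724 CPM in the other lines, against 211 to 408 (median 238) CPM in non-tumour cells.

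Of 23 B lineage transcription factors 16 were called lower and 1, Foxo1, higher (median -1.82). The higher call was lost without D5 replicate 1, and the median was -1.22 without WT replicate 2. Pou2f2, which encodes OCT-2, stood at 8.74 and 5.11 CPM in D5, against 117 to 184 (median 139.6) CPM in non-tumour cells and 37.6 to 139 CPM in the other lines (-4.35 ± 0.29, adjusted p = 4.57e-08), and its coactivator Pou2af1 at 619 and 664 CPM, against 856 to 1453 and 919 to 2295 CPM. Ikzf1, Ikaros, and Tcf3, E2A, also lay below the range (-1.24 ± 0.15 and -0.93 ± 0.11). Ebf1, Irf8, Zeb2 and Maf, which B, dendritic or myeloid cells express, were at most 2.04 CPM in D5 and at most 7.27 CPM in the other lines. Summed B cell markers were 83.7 and 74.4 CPM in D5, against 731 to 1185 CPM in non-tumour cells and 111 to 219 CPM in the other lines, and 6 of those markers, among them Ms4a1, Cd22 and Cd79a, are also in the receptor list. Their part in these falls was not tested. In the other lines Cd79b alone, at a median of 170 CPM, made up most of the B cell sum.

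Survival genes of the BCL2 family showed no common direction, with counts near the shares over all genes. Of 18 listed, 13 passed the filter, 5 were called higher and 3 lower. The protective Bcl2 stood at 0.795 and 1.02 CPM in D5, against 153 to 246 (median 194) CPM in non-tumour cells, 101 and 44.6 CPM in D1, 8.15 CPM in D4 and 638 and 409 CPM in tVk12653 (-7.69 ± 0.55, adjusted p = 6.60e-07). The protective Bcl2l1, BCL-XL, stood at 3.18 and 3.32 CPM, against 21.9 to 75.0 (median 35.7) CPM in non-tumour cells and 29.0 to 109.8 CPM in the other lines (-3.59 ± 0.49, adjusted p = 7.92e-05). Mcl1, also protective, stood at 648 and 644 CPM, against 642 to 836 CPM, and was not called. The protective Bcl2l2, BCL-w, lay just above the range at 62.3 and 61.1 CPM in D5, against 38.0 to 56.7 CPM in non-tumour cells and 23.2 to 60.8 CPM in the other lines (0.45 ± 0.15, adjusted p = 0.0184). Several pro-apoptotic members rose. Bcl2l11, BIM, lay above the range at 173 and 135 CPM, against 40.9 to 63.4 (median 53.05) CPM in non-tumour cells and 9.06 to 30.3 CPM in the other lines (1.55 ± 0.18, adjusted p = 4.05e-06), Bak1 lay above it as well (1.13 ± 0.21), and Bax and Pmaip1 rose within it (1.70 ± 0.17 and 2.29 ± 0.18). D5 thus had the lowest Bcl2 and Bcl2l1 and the highest Bcl2l11 of the 13 libraries.

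p53 and cell cycle control genes were mixed. Of 18 p53 pathway genes 10 were called higher and 6 lower (median 0.79). Sesn1, a stress sestrin, lay above the range at 476 and 328 CPM in D5, against 68.7 to 138 (median 90.8) CPM in non-tumour cells (2.09 ± 0.20, adjusted p = 3.36e-06), and Mdm4, an inhibitor of p53, below it at 132 and 134 CPM, against 242 to 369 (median 269) CPM (-1.13 ± 0.17, adjusted p = 4.96e-05). Phlda3 and Eda2r, targets of p53, were at or near 0 in non-tumour cells and stood at 14.3 and 14.3 and at 2.91 and 7.16 CPM in D5, inside the range of the other lines. Of 20 cyclins, their kinases and inhibitors 7 were called higher and 9 lower. Cyclin E1 (Ccne1) and Cdk4 lay above the range, Ccne1 at 172 and 242 CPM, against 19.01 to 50.9 (median 34.6) CPM (2.63 ± 0.28, adjusted p = 1.23e-05), and Cdk4 at 183 and 181 CPM, against 51.3 to 64.0 (median 59.0) CPM (1.63 ± 0.11, adjusted p = 2.18e-08). The inhibitor Cdkn2c stood at 0.795 and 1.79 CPM, against 9.67 to 26.7 (median 15.1) CPM in non-tumour cells and 1.63 to 36.9 CPM in the other lines (-3.61 ± 0.51, adjusted p = 2.86e-05). Cdkn2a and Cdkn2b had no read in either D5 library.

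In the smaller surface and chromatin lists the named genes were few. Of 25 adhesion and homing genes 3 were called higher and 16 lower (median -1.41). Itgb1, integrin beta 1, lay above the range at 218 and 259 CPM in D5, against 123 to 152 (median 142) CPM in non-tumour cells (0.78 ± 0.12, adjusted p = 8.45e-05). Ccr1 and Itgam, which neutrophils and monocytes express, were at most 1.53 CPM in D5, and summed neutrophil markers were 98.3 and 161 CPM in D5, against 2052 to 10441 CPM in non-tumour cells. The part of these cells in the falls was not tested. Ncam1 had 2 reads in D5, against 10.4 to 40.2 CPM in non-tumour cells, and lay below the range, though the other lines reached only 0.362 to 5.65 CPM.

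Of 15 immune checkpoint ligands 13 passed the filter, 2 were called higher and 7 lower (1 higher without D5 replicate 2). Cd276, B7-H3, lay above the range at 65.7 and 47.5 CPM in D5, against 0 to 1.11 CPM in non-tumour cells and 2.54 to 17.0 CPM in the other lines (7.69 ± 0.46, adjusted p = 7.27e-09; over the other lines 3.30 ± 0.34, adjusted p = 2.26e-06). Cd47, the signal against phagocytosis, and Tnfrsf14 and Icosl lay below the range, Cd47 at 139 and 137 CPM, against 263 to 348 (median 296) CPM (-1.12 ± 0.13, adjusted p = 4.02e-06). Cd200 and Pdcd1lg2 had no read in D5, and the fall from non-tumour cells was at least 30.5-fold for Cd200 and 30.1-fold for Pdcd1lg2. The other lines had at most 1.09 CPM of either.

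Of 20 chromatin regulators 7 were called higher and 8 lower. Hdac2, a deacetylase, Nsd2, a methyltransferase that human myeloma can activate by translocation, Uhrf1 and Dnmt3b lay above the range, Nsd2 at 187 and 210.1 CPM in D5, against 63.6 to 149 (median 82.6) CPM in non-tumour cells (1.17 ± 0.18, adjusted p = 6.14e-05). Cbx7, of the Polycomb complex, lay below it at 27.8 and 28.4 CPM, against 183 to 268 (median 205) CPM (-2.94 ± 0.21, adjusted p = 3.65e-08), as did Ezh1 and Kdm6b. Of 20 oncofetal and germline genes only 9 passed the filter, 3 called higher and 3 lower, the lower count being 1 without either D5 replicate. Tex19.1, a germline gene, stood at 2.65 and 10.5 CPM in D5 and had no read in any of the 11 other libraries. Lin28b, which blocks let-7 maturation, stood at 3.71 and 6.65 CPM in D5, against 51.3 to 90.5 CPM in the other lines and 0 to 0.986 CPM in non-tumour cells, so that D5 was lower than the other lines (adjusted p = 9.49e-07). Hmga1, a chromatin protein of embryonic cells, lay above the range (2.16 ± 0.18).

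Cholesterol synthesis showed little common movement, with 6 of 20 genes called higher and 4 lower, the lower count being 2 without D5 replicate 2, V replicate 2, V replicate 3 or WT replicate 1. Pmvk, a kinase of the mevalonate pathway, lay above the range at 45.8 and 44.5 CPM in D5, against 8.38 to 12.01 (median 10.2) CPM in non-tumour cells (2.13 ± 0.20, adjusted p = 5.96e-07), and Hsd17b7 had no read in D5, against 3.94 to 8.85 CPM, and was at least 8.39-fold lower. Of 20 autophagy and lysosome genes 3 were called higher and 10 lower, and 13 were lower than in the other lines. The proteases Ctss and Ctsb lay below the range, Ctss at 365 and 388 CPM, against 897 to 1157 (median 1084) CPM (-1.50 ± 0.17, adjusted p = 2.91e-06), as did the membrane protein Lamp2 and the autophagy genes Gabarap, Becn1 and Tfeb, the factor that drives lysosomal genes (-1.75 ± 0.26).

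Markers of other marrow cells were mostly lower in D5 than in non-tumour cells, and no more than 1 marker of any of these lists was lower than in the other lines. Of the tested markers, 18 of 19 neutrophil, 11 of 12 monocyte and macrophage, 7 of 11 T and NK cell, 11 of 13 B cell, 9 of 13 erythroid, 7 of 7 basophil and mast cell, 5 of 9 dendritic cell, 2 of 5 megakaryocyte and 2 of 7 stroma and endothelium markers were called lower than in non-tumour cells, and none higher. Over all genes tested 32.4% were called lower and 29.0% higher. The lower calls of megakaryocyte and of stroma and endothelium markers were near that share. Erythroid calls numbered 2 and 1 without D5 replicate 1 or 2 and 4 without V replicate 3, basophil and mast cell calls 3 without either D5 replicate or V replicate 2 and 4 without D4, and megakaryocyte calls 0 without D5 replicate 2 and 4 without WT replicate 1. S100a9, of neutrophils, stood at 12.7 and 25.6 CPM in D5, against 505 to 2507 (median 935) CPM in non-tumour cells. Summed erythroid markers were 14.6 and 7.92 CPM in D5, against 22.2 to 1169 CPM in non-tumour cells, and WT replicate 2 was highest. Markers with no read in either D5 library were Cd22, Cr2, Vpreb3, Igll1 and Blk of B cells, Cd3g, Cd8a, Cd5 and Ncr1 of T and NK cells, Mcpt8, Prss34, Cpa3 and Ms4a2 of basophils and mast cells, Ly86, Adgre1 and Ms4a6c of monocytes, Pf4, Ppbp and Gp1ba of megakaryocytes, Clec9a of dendritic cells, Hbb-bt of erythroid cells and Cdh5 of endothelium. Monocyte markers summed to 6.62 and 29.9 CPM in D5, against 231 to 1288 CPM in non-tumour cells and 529 to 1546 CPM in the other lines, and Ly6c2, which plasma cells can also express, made up most of the last. The remaining sums were 321 and 349 CPM for dendritic cells in D5, against 718 to 828 CPM in non-tumour cells and 319.7 to 516 CPM in the other lines, 1.85 and 2.30 against 33.0 to 140.1 CPM for basophils, 2.38 and 0.767 against 3.91 to 53.8 CPM for megakaryocytes and 48.8 and 40.9 against 68.3 to 142 CPM for stroma. The dendritic sum was mostly Tcf4, with medians of 550 CPM in non-tumour cells and 360 CPM in the other lines. In the other lines the sums were 100.01 to 1410.3 CPM for neutrophil, 0.724 to 7.28 CPM for T and NK cell, 10.96 to 33.1 CPM for erythroid, 0.362 to 17.0 CPM for basophil, 3.24 to 7.80 CPM for megakaryocyte and 15.6 to 442 CPM for stromal markers, so D5 overlapped with them for neutrophil, T and NK cell, erythroid, basophil, dendritic and stromal markers.

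**Figure D4:**
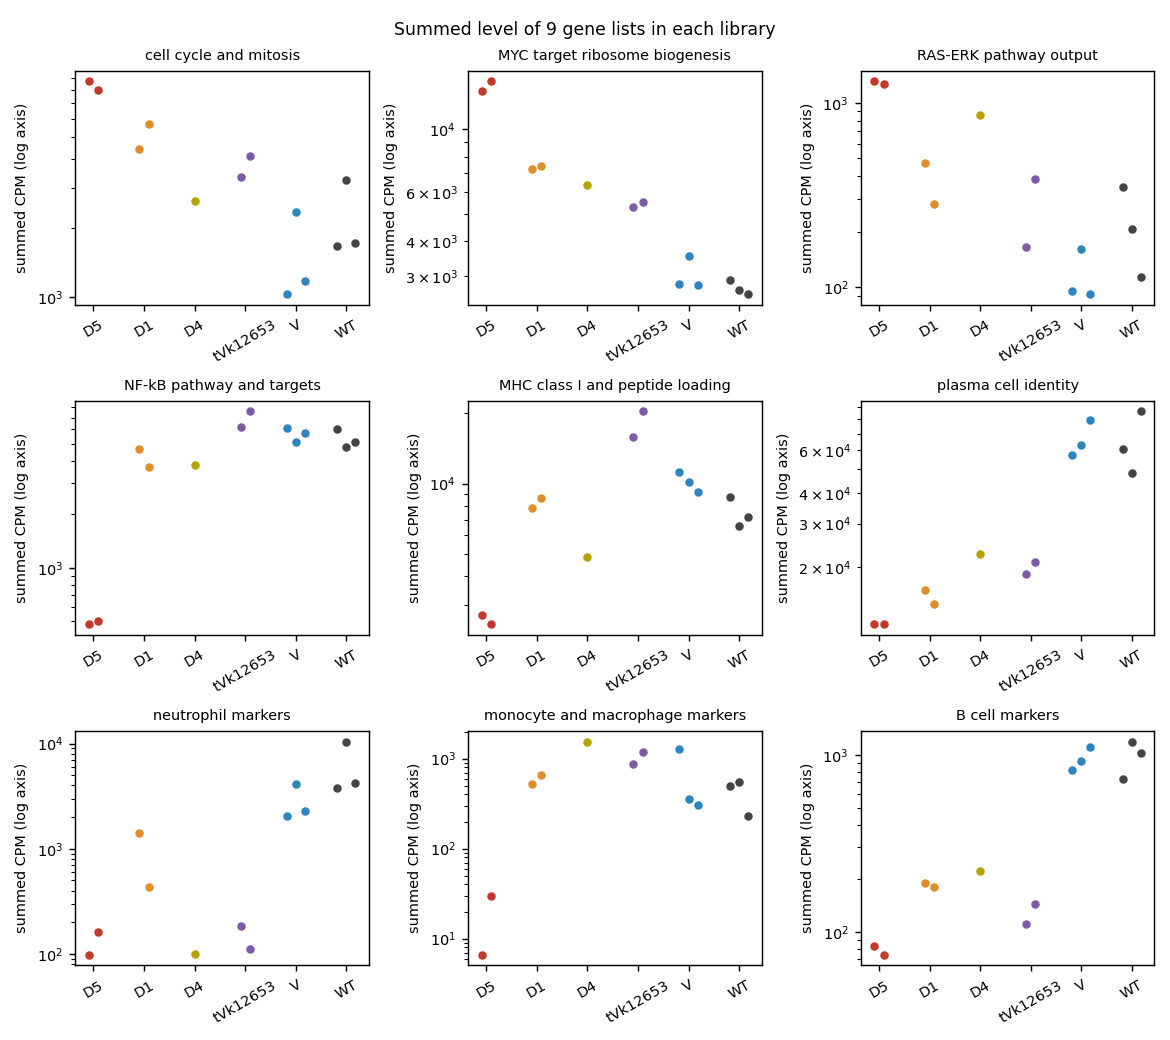
Summed CPM of 9 gene lists (log axes), 1 point per library, grouped by line or genotype. D5 is the highest group for cell cycle, ribosome biogenesis and RAS-ERK genes and the lowest for NF-kB, MHC class I, plasma cell identity and B cell genes, while neutrophil sums are low in all lines except D1 and the neutrophil sum of WT replicate 2 reaches 10441 CPM.

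Position on the chromosomes was not used to choose genes. On chromosome 3, 203 of 596 tested genes (34.1%) lay above the range and 9.06% below, against 17.4% and 14.3% over all chromosomes. The median level of its genes relative to non-tumour cells was 0.43 and 0.40 in the D5 libraries on the log2 scale, against -0.02 to 0.03 in the non-tumour libraries themselves and 0.02 to 0.07 in the other lines. The shift was concentrated in the middle of the chromosome: 26 of 49 genes (53.1%) between bases 40000001 and 60000000 lay above the range, 20 of 37 (54.1%) in the next 20 Mb and 90 of 201 (44.8%) between 80000001 and 100000000, against 8.16% between 20000001 and 40000000. Between 100000001 and 120000000 the count was 33 of 108 (30.6%), with D5 medians of 0.09 and 0.32. Of the genes above the range described here, Mab21l2, Pmvk and Phgdh lie between 80000001 and 100000000, Slc16a1 and Nras in the 20 Mb after that, and Ccna2 between 20000001 and 40000000. Tent5c and Ctss on the same chromosome lay below it. Expression was measured and copy number was not.

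No other chromosome had D5 medians above those of all other libraries. Chromosome 5 held 26.7% of genes above the range and 5.01% below it, but there the D5 medians were -0.05 and -0.07, and the other lines stood at -0.88 to -0.23. Chromosome 8 held 21.2% above, with D5 at -0.19 and -0.15 and the other lines at -0.80 to 0.01. On chromosome 7 only 6.43% of genes lay above the range and 189 of 995 below it, with D5 medians of -0.27 and -0.23, and the tVk12653 libraries stood at 0.69 and 0.71. On chromosome 13 the genes between 20000001 and 40000000, where the main cluster of replication-dependent histone genes lies, were above the range in 44 of 109 cases (40.4%). The median level there was 0.99 and 1.19 in D5, against 0.54 and 0.59 in D1, 0.27 in D4, -0.10 and 0 in tVk12653 and -0.31 to 0.42 in the non-tumour libraries, WT replicate 2 being the highest of these.

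**Figure D5:**
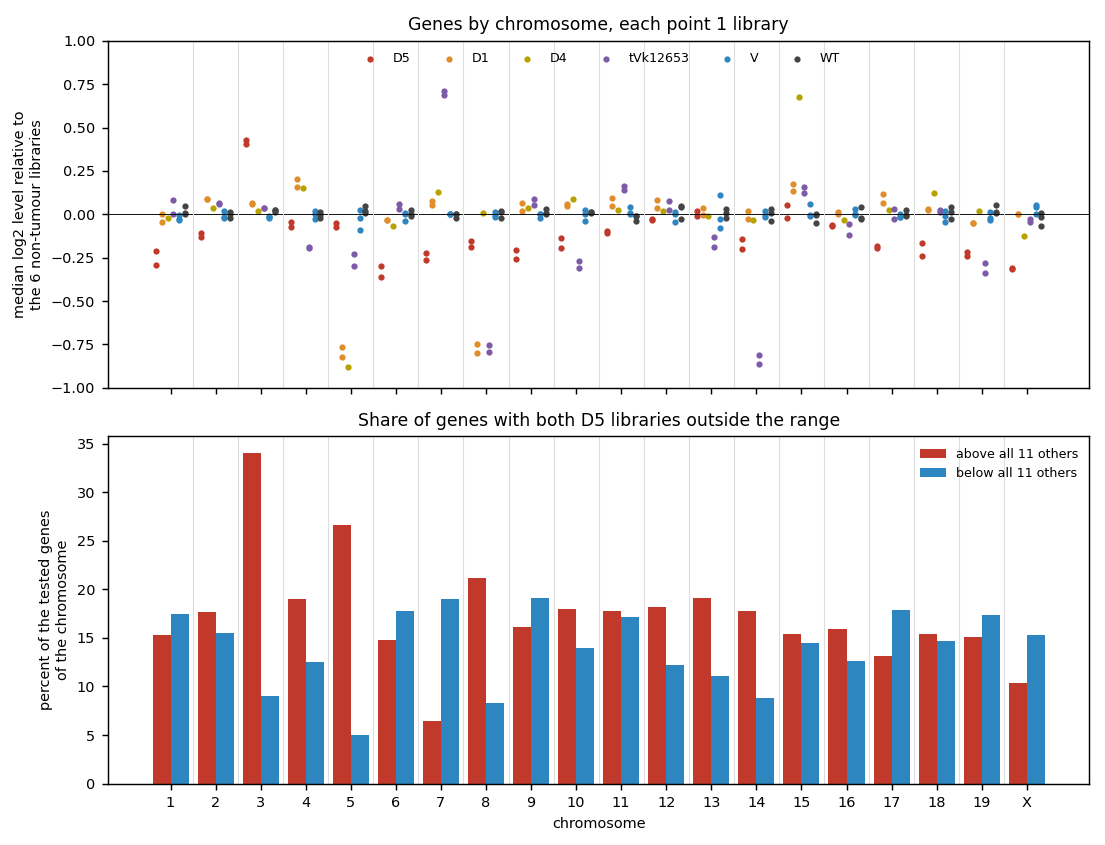
Upper panel: for each chromosome and library, the median over tested genes of the log2 level relative to the mean of the 6 non-tumour libraries. Lower panel: the percent of tested genes with both D5 libraries above (red) or below (blue) all 11 others. Chromosome 3 is the only one with D5 medians near 0.4 and has the tallest red bar at 34.1%.

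Some genes with few or no reads in D5 lay beside others with few or no reads, and these neighbours were chosen after their values were seen. On chromosome 4, Cdkn2a (89274473 to 89294619) and Cdkn2b (89306289 to 89311032), the inhibitors of cyclin D kinases, had no read in D5, against 1.84 to 14.6 and 2.46 to 4.27 CPM in non-tumour cells, and were at least 7.34-fold and 4.69-fold lower. Their neighbour Mtap (89137370 to 89181090), which salvages methionine, stood above the range at 169 and 189 CPM, against 28.6 to 45.4 CPM in non-tumour cells and 40.6 to 61.5 CPM in the other lines. D1 also had little Cdkn2a, at 0.269 and 0.543 CPM. Cdkn2b was inside the range, at 0 and 0.652 CPM in D1, 0 CPM in D4 and 5.78 and 7.61 CPM in tVk12653. Near Hook1, on the same chromosome, Fggy stood at 1.06 and 0 CPM in D5, against 2.13 to 6.81 CPM in non-tumour cells. Jun, also near it, was expressed at 168 and 278 CPM, against 626 to 5140 CPM, and both were inside the range. Further along, Bend5 (111413794 to 111460298) and Spata6 (111719951 to 111829142) each had 1 read in D5, against 32.8 to 69.9 and 10.5 to 29.6 CPM in non-tumour cells. On chromosome 8, Mon1b (113635586 to 113645192) stood at 0.530 and 0.511 CPM, against 36.7 to 52.8 CPM in non-tumour cells, and Nudt7 (114133574 to 114154731) had no read, against 1.48 to 9.58 CPM in non-tumour cells, 2.96 and 1.96 CPM in D1, 2.81 CPM in D4 and 0 and 0 CPM in tVk12653. Wwox, next along (114439635 to 115352712), a large gene over a fragile site, stood at 0.795 and 1.53 CPM in D5, against 17.7 to 31.0 CPM in non-tumour cells and 17.1 to 37.4 CPM in the other lines.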

How the data were processed

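Bulk RNA-seq of sorted mouse bone marrow plasma cells was available for 13 libraries in 6 groups. The values used are raw counts per gene, whole numbers that the authors deposited in 1 table. RNA was isolated with RNeasy Micro columns and made into libraries with a stranded total RNA kit for low input (SMARTer Pico v1), per the labels' protocols. The aligner was STAR 2.6.1d and the genome GRCm38.p6, per the submitters' processing notes. The counting tool, its annotation and its strand setting were not given in the sources used here, so overlapping, antisense and near-identical genes are uncertain. Of 22997 symbols 22000 matched RefSeq, which gave positions and promoters.

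Counts were tested with edgeR 4.0.16 in R 4.3.3 (TMM, filterByExpr with minimum count 10 and total 15, robust quasi-likelihood fit to all 13 libraries, each group having its own mean). D5 was compared with the mean of V and WT, with each alone and with the mean of the other lines, at a Benjamini-Hochberg adjusted p of 0.05. The standard error is the log2 fold change divided by the root of the F statistic. Ranges use TMM-scaled CPM, and distances a pseudocount of 0.5 CPM. Floors (3 counts) and exact 95% intervals cover counting error only, since these reads carry no molecular identifiers here. The scripts were tested on simulated data.

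The genes singled out, the 26 role lists, the 9 marker lists and the rule for named genes were chosen with earlier results of these data known. The rule names the 12 genes furthest above and below the range, in each list up to 4 called genes by fold change and up to 4 more outside the range, the engineered genes and sort markers, abundant markers, and genes at the edge of the range. Genes named outside it were chosen after their values were seen: the other genes on or off in D5 alone, Cry2, Nfkb2, Rela, Mcl1, Irf4, Xbp1, Prdm1, Spred2, Spred3, Phlda1, Spry1, Il1rl1, Nr4a2, Bcl2l2, the promoter examples, the markers without reads in D5 and the neighbouring genes. Some genes that the rule names are not reported here. The lists read were cell cycle, DNA replication, MYC target ribosome biogenesis, RAS-ERK output, immediate early, NF-kB, MHC class I and II, plasma cell identity, secretion, ATF4, glycolysis, oxidative phosphorylation, interferon, p53, BCL2, cyclins, adhesion, B cell receptor, B lineage factors, cytokine receptors, checkpoint ligands, chromatin, oncofetal, cholesterol and autophagy genes.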

Additional observations from a re-analysis of the deposited data

How the results depend on the processing

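Every alternative kept the counts of genes higher and lower in D5 within 1.5 times the values reported, except those that demand a 2-fold change. Testing against a 2-fold change (edgeR's glmTreat) left 1584 genes higher and 1884 lower against all non-tumour libraries, 1447 and 1972 against WT, 1414 and 1679 against V, and 125 and 130 members of the lists in place of 202 and 221. Asking for at least 2-fold beyond the range left 415 genes above and 357 below. DESeq2 1.42.0 called 3559 higher and 4056 lower. With 1 library left out at a time, 3050 to 3722 genes were higher and 3046 to 4173 lower, the smallest counts being those without a D5 replicate. With the recipients summed into 1 library, the line being the unit and the lone sample assumed to vary like the other groups, 3288 were higher and 2911 lower. Without D5 replicate 2 and WT replicate 2, chosen after seeing the data, 3089 were higher and 3115 lower, and without X and Y genes 3613 and 4045. The only reversal among named genes was Lepr, a stromal marker that was not called, at -0.0756 without D5 replicate 1 and -0.0742 with V and WT as 1 group, against 0.959 without D5 replicate 2.

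Replicate numbers are shared between groups, but D5 has only 2, and its deviations from the group mean correlated with those of same-numbered libraries at -0.028 and 0.031 for WT and 0.017 and 0.039 for V, while each V library correlated best with its own number in WT (0.125 to 0.190). With the replicate number as a block, 3559 genes were higher and 3984 lower, and 5 named genes lost their call, Fos, Fosb, Bad, Idi1 and Mvk. RAS-ERK genes called lower then numbered 1, immediate early genes called higher 0 and B lineage factors called higher 2. Over the alternatives the median of chromosome 3 stayed between 0.36 and 0.49. Depth limits genes under about 3 reads per library, and D5 stands for 1 tumour line.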
